A study of Saccharomyces cerevisiae with 40 samples.

Results

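The genes of sulfur assimilation and cysteine synthesis in budding yeast, Saccharomyces cerevisiae, were followed across cultures that each received an excess of 1 amino acid. The 32 genes were chosen by name and function from the 6462 genes of the table: sulfate uptake and reduction, homocysteine and methionine synthesis, transsulfuration, glutathione synthesis and the regulators of the pathway. The choice was made with earlier results of these data known, so the shares of these genes beside all genes are descriptive only. RNA was measured in 40 libraries, 4 in each of 10 groups. One group, Ctrl, is the control. Of the other 9, a pair received the sulfur amino acids cysteine (Cys) or methionine (Met), a pair the branched valine (Val) or isoleucine (Ile), a pair the aromatic phenylalanine (Phe) or tryptophan (Trp), and the rest alanine (Ala), glycine (Gly) or threonine (Thr). The 4 libraries of a group are lettered A to D, and the labels name the letters as batches. The labels used here name no strain, medium, dose or exposure time, so the amounts supplied may differ between the groups. Nothing in them says whether replicates were separate cultures, so p-values reflect only the spread between these libraries, some of which may be technical.

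Yeast takes up sulfate through permeases, activates it to phosphoadenylyl sulfate, reduces it to sulfite and then to sulfide, and joins the sulfide to a carbon chain derived from homoserine to make homocysteine. Homocysteine is methylated to methionine, or passed through cystathionine to cysteine by transsulfuration, which in yeast runs in both directions, and cysteine feeds glutathione. The pathway is known as a classic case of repression by its end products: the activator Met4 has no DNA-binding activity of its own, is brought to its promoters by Cbf1 or by Met31 and Met32 with the help of Met28, and is held inactive by the Met30 ubiquitin ligase when sulfur amino acids are plentiful.

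The libraries held an estimated 5555865 to 17928683 reads (median 8736143), and the values below are the authors' normalized reads. All 32 genes passed the filter, a mean of at least 5 over all libraries, among 6103 genes tested. Differences are given as log2 differences of value + 1 with their standard error, from 4 libraries in each group, with limma p-values adjusted over all genes tested and a threshold of 0.05. On this scale the change of genes with few reads is understated. In bulk RNA, fewer cells making a transcript and less of it per cell cannot be told apart. In the 4 Ctrl libraries the mean log2 level of 13 general stress genes was 7.39 to 7.66, against 8.03 to 9.45 in Ala, 8.31 to 10.29 in Gly, 8.14 to 8.59 in Trp, 7.85 to 9.02 in Met and 7.92 to 8.30 in Thr, all above Ctrl. It was 7.02 to 7.65 in Phe other than Phe C, which stood at 10.01, and Val (7.46 to 8.14), Ile (7.32 to 7.90) and Cys (6.82 to 7.78) overlapped Ctrl. All 40 libraries carried the transcripts of a mating type a cell, with a mean log2 level of 4 a-specific genes between 8.74 and 11.39 and of 3 alpha-specific genes between 3.14 and 4.73. The a-specific level was 10.52 to 11.02 in Ctrl, and all libraries of Gly (8.74 to 9.16) and Thr (9.90 to 9.99) lay below it.

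Sulfur genes rose under most of the amino acids, and few fell. In Ala 16 of the 32 rose and 2 fell, shares of 50% and 6.25%, where 23.1% of all genes tested rose and 24.2% fell. In Gly 14 rose, a share of 43.8% against 14% of all genes, and 0 fell against 12.2%. Val, Ile and Phe changed few genes as a whole but many of these. In Val 10 of the 32 rose (31.2%) against a background of 2.51% of all genes, in Ile 13 (40.6%) against 1.26%, and in Phe 13 (40.6%) against 3.7%. In Thr 6 rose (18.8%, background 5.87%) and in Met 8 rose (25%, background 6.06%). By limma 0 fell in these 5 groups, where 2.88% of all genes fell in Val, 0.655% in Ile, 1.9% in Phe, 5.33% in Thr and 3.74% in Met. At an unadjusted p under 0.05 between 1 and 4 were lower in each of the 5, and 0 in Gly. Trp had 4 higher and 3 lower, shares of 12.5% and 9.38% near the backgrounds of 6.32% and 6.0%. Cys had 1 higher and 2 lower (3.12% and 6.25%), against 1.29% and 1.54% of all genes, and at an unadjusted p under 0.05 it had 1 higher and 8 lower.

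Some of these counts rested on single libraries or on the scaling. The Trp count went from 7 to 4 without Trp A. The Cys count went from 3 to 1 without Ctrl A, Ctrl D or Cys C, to 0 without Cys B, and to 1 in a fit to Cys and Ctrl alone. With the libraries rescaled to equal totals Val had 9 higher and 3 lower, and Cys 1 higher and 4 lower. A fit to Val and Ctrl alone gave 12 higher and 3 lower in Val.

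**Figure D1:**
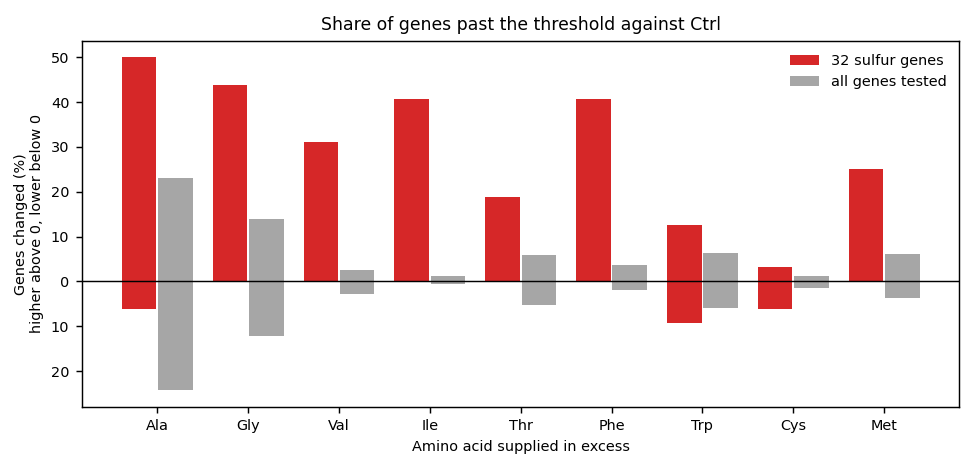
Bars give the share of genes past an adjusted p of 0.05 against Ctrl, in percent, higher above 0 and lower below 0, for the 32 sulfur genes (red) and all 6103 genes tested (grey), for each amino acid. The red bars stand well above the grey ones in Gly, Val, Ile and Phe, and are short in Cys.

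The median log2 difference of the 32 genes from Ctrl was 0.36 in Ala, 0.33 in Phe, 0.30 in Val, 0.26 in Gly, 0.22 in Met, 0.21 in Thr, 0.18 in Ile, 0.04 in Trp and -0.05 in Cys, while the median of all genes lay between -0.0157 and 0.0048. The same 4 Ctrl libraries serve all 9 comparisons. By gene, MET16 passed upward with 7 amino acids, and CYS3, MET1, SEO1 and STR3 with 6. MET28 passed with 8 as deposited, but its calls in Ile, Thr, Trp and Met were lost when it was summed with an overlapping frame, which left 4. At the other end, CYS4, GSH2, MET12, MET30, MET31, MET32, MET7 and MET8 rose with none of the 9. Without Phe C, the library high in stress genes, 13 sulfur genes rose in Phe and 1 fell. Without Gly C, the highest of its group in stress genes, 15 rose in Gly and 0 fell. The other Gly libraries, at 8.31 to 9.18, still stood above every Ctrl library in stress genes. The shares of all genes without Phe C or Gly C are not given here. Of the 13 stress genes 6 rose in Ala (46.2%, against 23.1% of all genes) and 8 in Gly (61.5%, against 14%). In Trp 2 rose (15.4%, against 6.32%). In each of Thr, Phe and Met 1 rose (7.69%), where 5.87%, 3.7% and 6.06% of all genes did. The part of the stress genes in the values of the sulfur genes was not tested, and leaving out Phe C or Gly C does not test it.

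**Figure D2:**
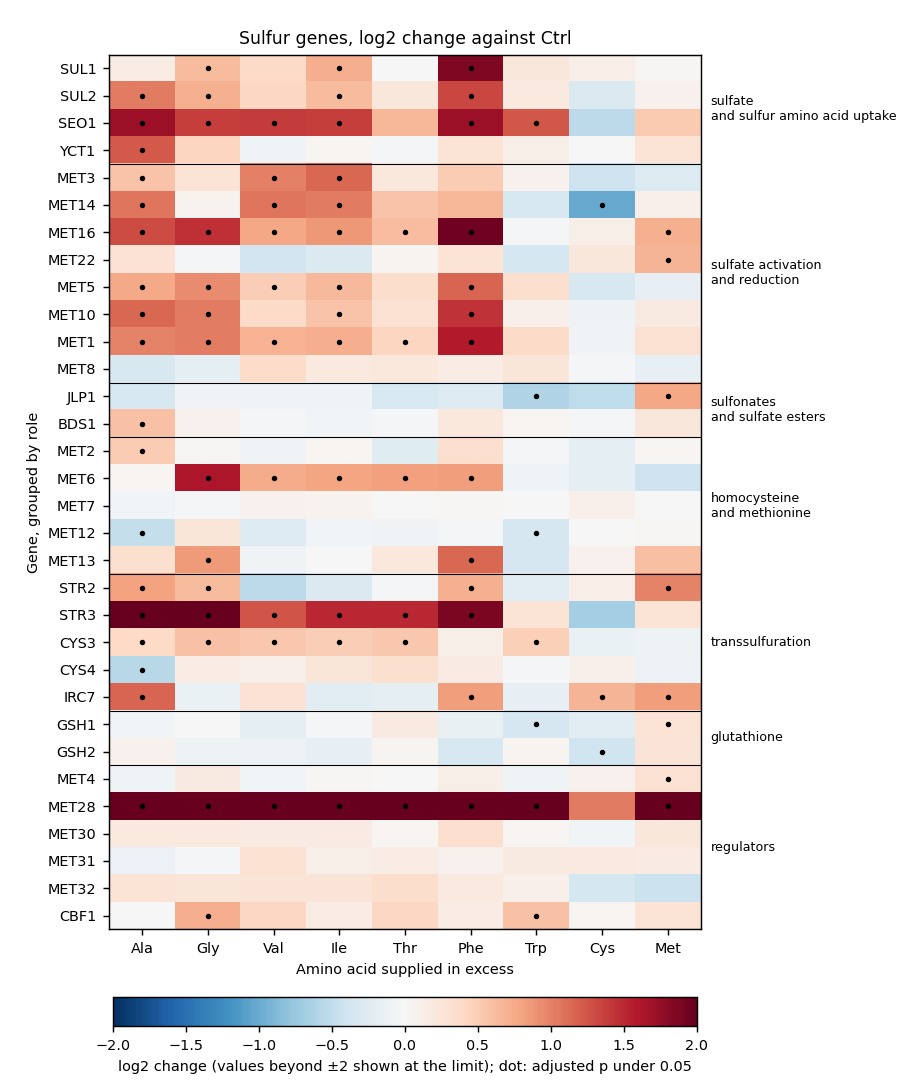
Colours give the log2 difference from Ctrl of each sulfur gene (rows, grouped by role) with each amino acid (columns), cut off at 2 in either direction, and dots mark an adjusted p under 0.05. Ala, Gly, Ile and Phe hold the most dots, Cys the fewest, and MET28 as deposited, STR3, SEO1, MET16, MET1 and CYS3 are dotted across the most columns.

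Promoters are shown for 3 genes because they hold the letters known to be bound by the pathway's regulators and rose in several groups. These are MET16 and MET10, of the reducing enzymes, and MET28. Each line gives the 200 bases from 300 to 101 before the coding start, read 5′ to 3′ on the gene's strand from the RefSeq R64 genome; the build the authors counted on is not given in the sources used here. Capitals mark CACGTG, the core site of Cbf1, and CTGTGG or its reverse complement CCACAG, the core bound by Met31 and Met32.
MET16, chrXVI:877733-877932, minus strand: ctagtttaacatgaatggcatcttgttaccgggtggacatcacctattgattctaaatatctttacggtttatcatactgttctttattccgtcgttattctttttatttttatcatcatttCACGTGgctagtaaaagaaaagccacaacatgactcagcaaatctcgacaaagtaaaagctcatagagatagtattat
MET10, chrVI:213012-213211, plus strand: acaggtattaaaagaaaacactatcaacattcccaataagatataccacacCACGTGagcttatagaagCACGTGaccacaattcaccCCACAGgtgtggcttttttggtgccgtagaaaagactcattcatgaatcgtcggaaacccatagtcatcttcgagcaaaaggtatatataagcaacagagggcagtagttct
MET28, chrIX:384220-384419, minus strand: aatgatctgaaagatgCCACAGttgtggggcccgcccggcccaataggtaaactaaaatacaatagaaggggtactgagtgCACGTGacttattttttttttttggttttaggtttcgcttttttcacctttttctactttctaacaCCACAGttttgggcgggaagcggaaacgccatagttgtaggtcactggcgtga
In MET10 the CACGTG matches begin 249 and 231 bases before the coding start and the CTGTGG match 212 bases before it. In MET28 the CACGTG match lies at 219 bases and the CTGTGG matches at 284 and 153, and in MET16 the single CACGTG match lies at 178.

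Over the 300 bases before the coding start, searched on both strands with no match of one motif overlapping the other, CACGTG was found in 11 of the 32 promoters (34.4%) and in 214 of 6007 promoters of the genome (3.56%). CTGTGG was found in 10 of the 32 (31.2%) and in 411 of all (6.84%), and both motifs in 3 of the 32, MET10, MET28 and MET30 (9.38%), and in 21 of all (0.35%). CACGTG matches were in CBF1, CYS3, GSH1, MET1, MET10, MET14, MET16, MET22, MET28, MET30 and MET8, and CTGTGG matches in BDS1, CYS4, JLP1, MET10, MET12, MET13, MET28, MET3, MET30 and SUL2. CACGTG was held by 6 of the 16 genes that rose in Ala (5 of the 16 others), 6 of 14 in Gly (5 of 18), 6 of 13 in Ile (5 of 19), 4 of 8 in Met (7 of 24) and 4 of 13 in Phe (7 of 19). CTGTGG was held by 5 of the 16 in Ala (5 of 16 others), 4 of 14 in Gly (6 of 18), 4 of 13 in Ile (6 of 19), 2 of 8 in Met (8 of 24) and 4 of 13 in Phe (6 of 19). The 14 promoters with neither motif in this window include those of SUL1, STR3, SEO1, MET5 and MET6, each of which rose in at least 3 groups. A match here is a description of the letters and was not tested as a site.

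Transcripts of the sulfate permeases stood highest in Phe. SUL1 and SUL2 encode the high-affinity sulfate permeases. The Ctrl libraries held 212, 203, 240.5 and 241 normalized reads of SUL1, in the order A to D, and the Phe libraries 781, 903, 891 and 715, a difference of 1.87 ± 0.16, adjusted p = 1.22e-10. Every Phe library was above every library of the other groups. SUL1 also rose in Ile (425, 333, 392 and 341; 0.73 ± 0.16, adjusted p = 0.00732) and in Gly (614, 257, 279.6 and 333; 0.64 ± 0.16, adjusted p = 0.00365). In Gly the rise leaned on Gly A, and without it the difference was 0.36 with an adjusted p of 0.0434; a fit to Gly and Ctrl alone ended the call (adjusted p = 0.0836). SUL1 in Ala, at 256, 218, 256 and 268, differed from Ctrl by 0.15 ± 0.16 (adjusted p = 0.465), and in Cys, Met, Thr, Trp and Val the log2 difference was between 0.01 and 0.39 and did not pass.

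SUL2 rose in 4 groups, with Ala among them. In Val (0.41 ± 0.14) it passed in a fit to Val and Ctrl alone (adjusted p = 0.0258 against 0.0836). Its normalized reads were 212, 195, 259 and 238 in Ctrl, 502, 524, 877 and 455 in Phe and 465, 514, 406 and 481 in Ala. The lowest Phe and Ala libraries stood well above the highest Ctrl library, and Phe C was far above the other 3. The differences were 1.34 ± 0.14, adjusted p = 1.08e-08 in Phe and 1.04 ± 0.14, adjusted p = 2.74e-07 in Ala, and SUL2 also rose in Gly (0.72 ± 0.14) and Ile (0.64 ± 0.14). Thus Ala libraries had more SUL2 but a SUL1 difference that did not pass. SEO1, a putative permease of the allantoate family, was low everywhere: 14.8, 11.9, 17.6 and 17.6 normalized reads in Ctrl, 53.1, 46.4, 56.3 and 54.8 in Ala and 61.2, 52.1, 55.1 and 42.7 in Phe. The Ala and Phe libraries all lay above the Ctrl libraries, by 1.71 ± 0.29, adjusted p = 1.53e-05 and 1.71 ± 0.29, adjusted p = 9.74e-05. SEO1 rose as well in Val (1.41 ± 0.29), Ile (1.39 ± 0.29), Gly (1.38 ± 0.29) and Trp (1.25 ± 0.29), and its Cys libraries, at 3.79, 16.9, 9.99 and 16.6, overlapped Ctrl.

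YCT1, a high-affinity cysteine transporter, rose in Ala. Its normalized reads were 172, 159, 164 and 226 in Ctrl and 475, 318, 595 and 345 in Ala, with no overlap (1.23 ± 0.17, adjusted p = 4.19e-07). With cysteine itself supplied they were 149, 179, 167 and 234, and the difference from Ctrl was 0.01 ± 0.17 (adjusted p = 0.988). In Gly the difference was 0.42 ± 0.17 and did not pass (adjusted p = 0.062).

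**Figure D3:**
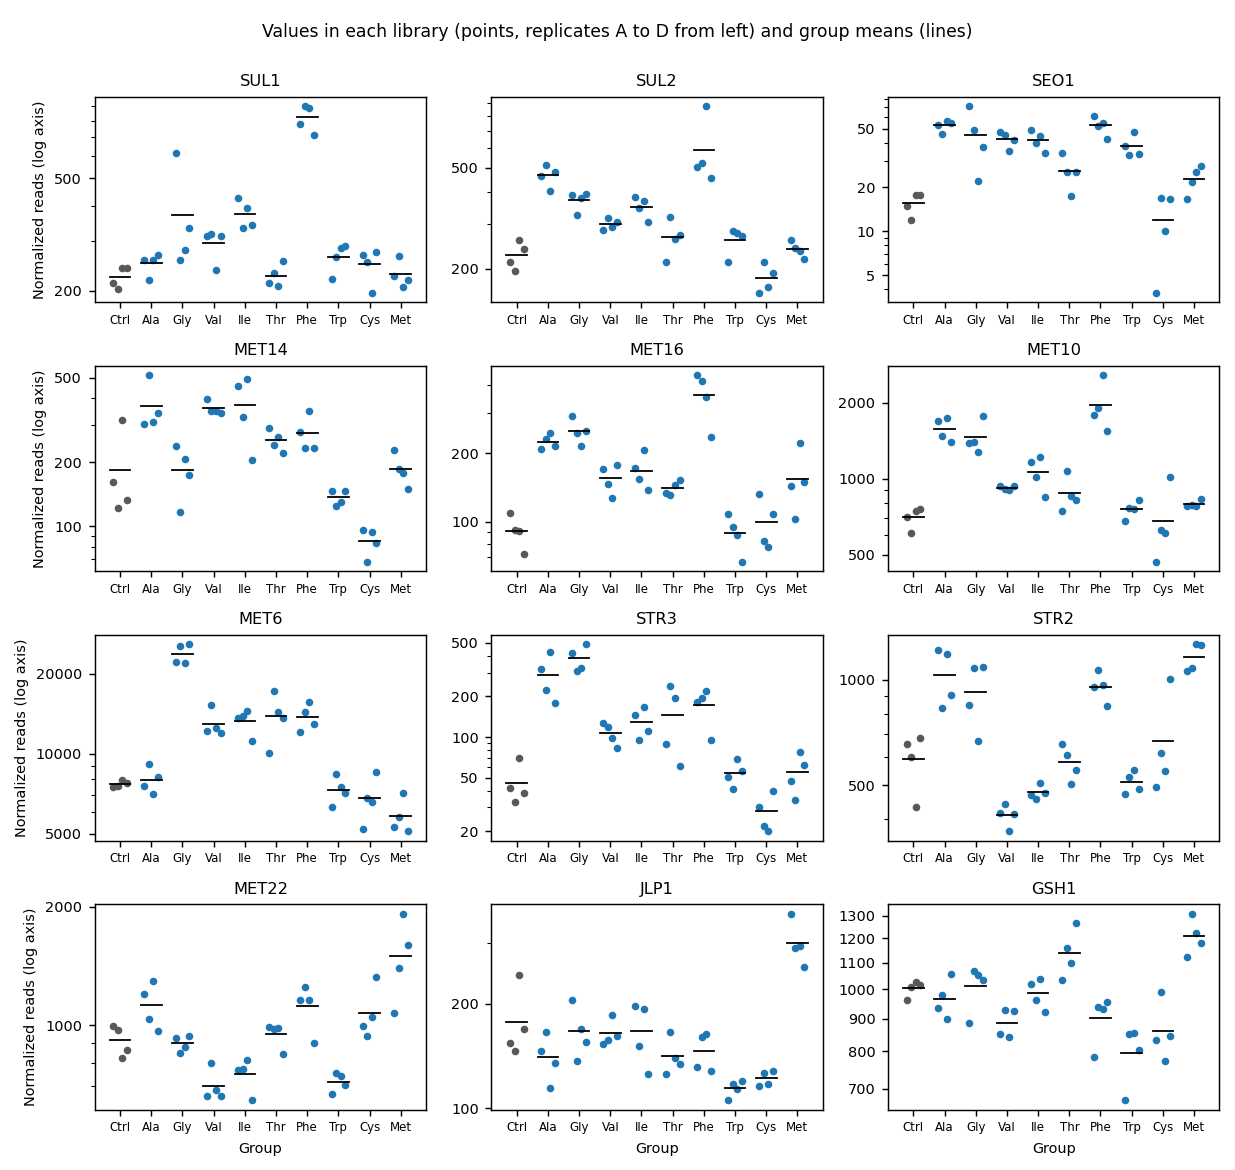
Points are the normalized reads of 12 sulfur genes in each of the 40 libraries (log axis; replicates A to D from left in each group, Ctrl in grey) and lines are group means of 4. SUL1, SUL2, MET16 and MET10 are highest in Phe, MET6 and STR3 in Gly, JLP1, STR2, MET22 and GSH1 in Met, and MET14 lowest in Cys.

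The genes of sulfate activation followed another order. MET3 encodes ATP sulfurylase and MET14 the kinase that phosphorylates its product. MET3 was read at 261, 268, 469 and 309 in Ctrl, 672, 685, 596 and 601 in Val and 843, 735, 923 and 428 in Ile. All Val libraries exceeded every Ctrl library, while Ile D fell below Ctrl C. MET3 was higher by 1.15 ± 0.18, adjusted p = 0.000156 in Ile, by 1.0 ± 0.18, adjusted p = 0.00044 in Val and by 0.57 ± 0.18, adjusted p = 0.011 in Ala. In Phe, where the permease genes were highest, MET3 differed by 0.51 ± 0.18 and did not pass (adjusted p = 0.109). Ctrl C, at 469, was the highest Ctrl library for MET3, and without it the sulfur genes that rose in Phe numbered 16 instead of 13. The Ala call for MET3 was lost without Ala B (0.42, adjusted p = 0.0733).

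MET14 was read at 162, 122, 317 and 133 in Ctrl, with Ctrl C apart from the other 3. It stood at 399, 347, 350.4 and 342 in Val, 302, 515, 309 and 342 in Ala and 459, 327, 492 and 205 in Ile. It was higher by 1.08 ± 0.24, adjusted p = 0.00392 in Val, 1.07 ± 0.24, adjusted p = 0.000469 in Ala and 1.04 ± 0.24, adjusted p = 0.00899 in Ile, although Ctrl C reached into the Ala and Ile ranges. In Cys it stood at 96.1, 67.6, 93.9 and 83.1, below every Ctrl library, a difference of -1.0 ± 0.24, adjusted p = 0.0134. This is the largest fall of any of the 32 genes. The Cys call was lost without Ctrl C or Cys B (-0.90 to -0.70, adjusted p = 0.0687 to 0.0993), and the Ile call without Ctrl B, Ctrl D, Ile A or Ile C (0.88 to 0.92, adjusted p = 0.0619 to 0.0816). A fit to the compared groups alone ended both, with adjusted p of 0.104 in Cys and 0.124 in Ile.

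The genes that reduce the activated sulfate rose in many groups. MET16 encodes the reductase that makes sulfite. Its normalized reads were 109.8, 92.3, 91.5 and 72.4 in Ctrl, 442, 417, 354 and 237 in Phe, 294, 247, 215 and 250.0 in Gly and 209.7, 231, 246 and 217 in Ala. All libraries of Phe, Gly and Ala were above Ctrl, by 1.95 ± 0.19, adjusted p = 2.51e-09, 1.45 ± 0.19, adjusted p = 4.29e-07 and 1.31 ± 0.19, adjusted p = 1.31e-06. MET16 also passed in Ile (0.87 ± 0.19), Val (0.77 ± 0.19), Met (0.71 ± 0.19) and Thr (0.62 ± 0.19), and gave 0.11 ± 0.19 in Cys and -0.04 ± 0.19 in Trp, which did not pass. Thus MET16 and MET14, neighbours in the pathway, ordered the groups differently: MET14 in Gly, at 238, 117, 207 and 173, differed from Ctrl by 0.06 ± 0.24 (adjusted p = 0.882). The MET16 calls were lost without Ctrl D or Met C (0.52 to 0.61, adjusted p = 0.0697 to 0.0852) in Met, without Ctrl D (0.66, adjusted p = 0.067) in Val, without Ctrl D (0.76, adjusted p = 0.0503) in Ile, and without Ctrl B, Ctrl C, Ctrl D, Thr A, Thr C or Thr D (0.52 to 0.65, adjusted p = 0.052 to 0.127) in Thr. The call in Met also ended in a fit to Met and Ctrl alone (adjusted p = 0.0601).

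MET5 and MET10 encode the subunits of sulfite reductase, and MET1 and MET8 make its siroheme. MET10 was read at 709, 612, 744 and 762 in Ctrl and at 1797, 1908, 2571 and 1546 in Phe (1.45 ± 0.15, adjusted p = 1.15e-08), with Phe C highest. It was also raised in Ala, at 1690.3, 1479.7, 1734 and 1399 (1.15 ± 0.15, adjusted p = 2.05e-07), and in Gly, at 1392, 1395, 1280.0 and 1767 (1.04 ± 0.15, adjusted p = 3.31e-06), without overlap with Ctrl in either. MET5 moved with it, from 607, 538, 709.7 and 670.3 in Ctrl to 1258, 1397, 2002 and 1138 in Phe (1.17 ± 0.15, adjusted p = 4.24e-07), and rose in Gly (0.94 ± 0.15), Ala (0.76 ± 0.15), Ile (0.65 ± 0.15) and Val (0.49 ± 0.15). MET10 passed in Ile (0.58 ± 0.15) but not in Val (0.39 ± 0.15, adjusted p = 0.153). Its Val libraries all lay above Ctrl, and it passed there in a fit to Val and Ctrl alone (adjusted p = 0.00946). The call of MET5 in Ile was lost without Ctrl B, Ile A or Ile C (0.56 to 0.59, adjusted p = 0.0541 to 0.0664), and that of MET5 in Val without any of 7 of the 8 libraries other than Ctrl C (0.42 to 0.52, adjusted p = 0.0644 to 0.172). That of MET10 in Ile was lost without Ctrl A, Ctrl B, Ctrl D, Ile A, Ile B or Ile C (0.51 to 0.62, adjusted p = 0.0519 to 0.171). Rescaling to equal totals ended MET10 in Ile (adjusted p = 0.0546) and MET5 in Val (adjusted p = 0.0717).

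MET1, a methyltransferase of siroheme synthesis, was read at 179.6, 210.3, 271 and 214 in Ctrl and 626, 717, 788 and 505 in Phe, a rise of 1.58 ± 0.14, adjusted p = 1.95e-10 with no overlap. It rose by 1.03 ± 0.14 in Gly, 0.99 ± 0.14 in Ala, 0.72 ± 0.14 in Ile, 0.70 ± 0.14 in Val and 0.43 ± 0.14 in Thr. Its call in Thr was lost without Ctrl A, Ctrl B, Ctrl D, Thr A, Thr B or Thr C (0.34 to 0.45, adjusted p = 0.0694 to 0.162). With the batch letter as a block it also passed in Trp (0.38, adjusted p = 0.05 against 0.0746). MET8, which completes siroheme, stayed between -0.33 and 0.37 and passed in none of the 9 comparisons. MET22, the phosphatase that clears the nucleotide left by sulfate reduction, was read at 993, 974, 828 and 868 in Ctrl and 1073, 1398, 1919 and 1599 in Met, above every Ctrl library (0.68 ± 0.13, adjusted p = 0.000263). Its other 8 differences, from -0.38 in Val to 0.29 in Ala, did not pass, though the Ala one did under the block (adjusted p = 0.0492 against 0.0544). With equal totals MET22 passed upward in Ala (0.48, adjusted p = 0.00316) and downward in Val (-0.43, adjusted p = 0.039). In fits to the compared groups alone it passed in Ala (adjusted p = 0.0467), and fell in Val (0.0186) and Trp (-0.35, 0.0097).

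Among genes that draw sulfur from other sources, JLP1 rose in Met and BDS1 in Ala. JLP1, a dioxygenase that releases sulfite from sulfonates such as taurine, was read at 154, 146, 242 and 169 in Ctrl and 364, 289, 294 and 255 in Met. The Met libraries were all above Ctrl, by 0.77 ± 0.15, adjusted p = 0.00047, and above every library of the other groups. In Trp JLP1 stood at 105, 117, 114 and 119.8, below Ctrl throughout (-0.61 ± 0.15, adjusted p = 0.00514). In Cys it stood at 116, 127, 117 and 128, a difference of -0.51 ± 0.15, adjusted p = 0.0526, which passed only with the batch letter as a block (0.0394) or with equal totals (0.0176). BDS1, a sulfatase that frees sulfate from alkyl and aryl esters, rose in Ala, from 315, 261, 359.6 and 327 to 501, 456, 498 and 434 normalized reads (0.59 ± 0.10, adjusted p = 1.3e-05). It passed in no other comparison with Ctrl, except in Met with equal totals (0.29, adjusted p = 0.0492).

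Among the genes that make homocysteine and methionine, the methionine synthase MET6 rose most in Gly. The Ctrl libraries held 7474, 7527, 7983 and 7749 normalized reads and the Gly libraries 22019, 25345, 21832 and 25734, a rise of 1.62 ± 0.14, adjusted p = 1.59e-11. In Phe it was read at 12056, 14321, 15662 and 12862, in Thr at 10065, 17263, 14289.6 and 13570.3, in Ile at 13660.0, 13882, 14439 and 11169.9 and in Val at 12161, 15245, 12439 and 11965. These 5 groups lay wholly above Ctrl, and Gly wholly above the other 4. The rises were 0.83 ± 0.14, adjusted p = 4.92e-05 in Phe, 0.82 ± 0.14, adjusted p = 4.6e-05 in Thr, 0.78 ± 0.14, adjusted p = 0.000461 in Ile and 0.75 ± 0.14, adjusted p = 0.00044 in Val. Ala, with the most changed genes of any group, gave 0.04 ± 0.14 (adjusted p = 0.811). In Met the libraries held 5299, 5792, 7120.4 and 5099.8, all below Ctrl, a difference of -0.41 ± 0.14, adjusted p = 0.0501, just short of the threshold. That fall passed with the batch letter as a block (adjusted p = 0.0156) and in a fit to Met and Ctrl alone (0.0361).

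MET13 and MET12 are methylenetetrahydrofolate reductases, which supply the methyl group that Met6 transfers. MET13 was read at 755, 869, 665 and 1063 in Ctrl and 1364, 2027, 2299 and 1748 in Phe, and rose by 1.14 ± 0.27, adjusted p = 0.00526 there. In Gly it stood at 1059, 1564, 1434 and 2077 (0.85 ± 0.27, adjusted p = 0.0176), with Gly A inside the Ctrl range, and the call was lost without Ctrl C or Gly D (0.69 to 0.75, adjusted p = 0.0629 to 0.0741). In Cys its libraries held 429.8, 784, 827 and 2130.0, the widest spread of any group, with Cys D alone above Ctrl. MET12 went the other way and fell in Ala (-0.48 ± 0.09, adjusted p = 0.000104) and in Trp (-0.34 ± 0.09, adjusted p = 0.0142). The fall in Trp was lost without Trp A (-0.30, adjusted p = 0.0668). In Gly MET12 differed by 0.25 ± 0.09, which passed with the block (adjusted p = 0.0335 against 0.0509) and with equal totals (0.0254). In Val it differed by -0.26 ± 0.09 (adjusted p = 0.115), which passed with equal totals (0.0141) and in a fit to Val and Ctrl alone (0.0413). MET2, which acetylates homoserine to form the acceptor of sulfide, rose in Ala (0.51 ± 0.12, adjusted p = 0.00062), and with the block in Phe (0.33, adjusted p = 0.0278 against 0.104). MET7, a folylpolyglutamate synthetase, lay within -0.06 and 0.10 of Ctrl and passed nowhere.

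In transsulfuration STR3 and CYS3 each rose with 6 of the 9 amino acids. STR2 makes cystathionine from cysteine, and STR3 splits cystathionine to homocysteine. STR3 was read at 41.6, 32.7, 69.8 and 38.4 in Ctrl, 421, 309, 324 and 486 in Gly and 318, 224, 429 and 179.7 in Ala. Gly and Ala lay far above Ctrl, by 3.08 ± 0.33, adjusted p = 6.25e-09 and 2.61 ± 0.33, adjusted p = 9.9e-08. In Phe it stood at 182, 194, 218 and 94.2, a rise of 1.88 ± 0.33, adjusted p = 0.00015. STR3 also rose in Ile (1.51 ± 0.33), Thr (1.51 ± 0.33) and Val (1.26 ± 0.33). In Cys it was read at 30.3, 21.97, 19.98 and 39.9, and the difference of -0.67 ± 0.33 did not pass (adjusted p = 0.376). The Val call was lost without Ctrl A, Ctrl B, Ctrl D, Val A or Val B (1.12 to 1.23, adjusted p = 0.0517 to 0.0849), and Thr D overlapped Ctrl C.

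STR2 rose where STR3 did in Ala (0.80 ± 0.16), Phe (0.70 ± 0.16) and Gly (0.63 ± 0.16), but its largest rise was in Met. The Met libraries held 1062, 1078, 1262 and 1258 normalized reads against 656, 602, 433 and 683 in Ctrl, with no overlap (0.99 ± 0.16, adjusted p = 5.1e-05). In Met STR3 differed by 0.27 ± 0.33 (adjusted p = 0.652). In Val STR2 was read at 416, 440.2, 369 and 412, a difference of -0.52 ± 0.16, adjusted p = 0.0536. That fall passed with the batch letter as a block (0.0426), with equal totals (0.0334) and in a fit to Val and Ctrl alone (0.0258), while STR3 rose in the same libraries. IRC7, a beta-lyase that releases sulfide or thiols from cysteine and its conjugates, rose in Ala, from 721, 679, 1012 and 687 in Ctrl to 1741, 1475, 1484 and 2253 (1.16 ± 0.19, adjusted p = 6.86e-06), in Phe (0.84 ± 0.19, adjusted p = 0.00332), in Met (0.83 ± 0.19, adjusted p = 0.00331) and in Cys (0.69 ± 0.19, adjusted p = 0.0377). The Cys libraries, at 1293, 1305, 1296 and 1045, were all above Ctrl. The Cys call was lost without Ctrl A, Ctrl B, Ctrl D, Cys A, Cys B or Cys C (0.63 to 0.66, adjusted p = 0.0888 to 0.127), and the Phe call in a fit to Phe and Ctrl alone (adjusted p = 0.0586).

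CYS4 and CYS3 form the arm toward cysteine, as cystathionine beta-synthase and gamma-lyase. CYS3 rose in 6 groups by a small and similar amount. Group means were 4999.8 ± 784 normalized reads in Ctrl (SD, n = 4) and 7485 ± 945 in Gly, and the rises ran from 0.40 ± 0.12 in Ala to 0.59 ± 0.12, adjusted p = 0.000255 in Gly, with Val, Ile, Thr and Trp between. In Phe, Cys and Met CYS3 differed by 0.11, -0.13 and -0.10, which did not pass. CYS4 did not follow it: the Ala libraries held 6632, 6936, 4872 and 8652 against 8940.4, 9058, 10851 and 10192 in Ctrl, a fall of -0.55 ± 0.12, adjusted p = 0.000289, and in the other 8 groups its differences did not pass. In Thr CYS4 passed under the block (0.32, adjusted p = 0.0495 against 0.0807), with equal totals (0.0167) and in a fit to Thr and Ctrl alone (0.0386). All Thr libraries lay above Ctrl. The call of CYS3 in Ile was lost without Ctrl A, Ctrl B, Ile B or Ile D (0.42 to 0.47, adjusted p = 0.0508 to 0.104), and that in Ala in a fit to Ala and Ctrl alone (adjusted p = 0.0669).

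The glutathione genes moved little. GSH1, the glutamate-cysteine ligase, was read at 963, 1007, 1027 and 1015 in Ctrl, 671, 852, 853 and 803 in Trp and 1122, 1310.2, 1221 and 1179 in Met. It fell in Trp, where all libraries lay below Ctrl (-0.34 ± 0.08, adjusted p = 0.00566), and rose in Met, where all lay above (0.27 ± 0.08, adjusted p = 0.0377). GSH2, the glutathione synthetase, fell in Cys, to 918, 838, 876 and 1044 from 1299, 1288, 1098 and 1161 (-0.40 ± 0.11, adjusted p = 0.0433). Each of these 3 calls is thin. GSH1 in Trp was lost without Trp A (-0.26, adjusted p = 0.0517), GSH1 in Met without Ctrl A, Ctrl B, Ctrl C, Ctrl D, Met B, Met C or Met D (0.23 to 0.28, adjusted p = 0.0571 to 0.129), and GSH2 in Cys without Ctrl A, Ctrl B, Ctrl D, Cys A, Cys B or Cys C (-0.42 to -0.36, adjusted p = 0.0762 to 0.17). A fit to Cys and Ctrl alone also ended the call of GSH2 (adjusted p = 0.0682).

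Of the 6 regulators MET28 changed most, but its values must be read with an overlapping frame. Deposited values of MET28 were whole multiples of a library's read unit in 12 of the 40 libraries, and their sum with the frame YIR017W-A in all 40, so reads were divided between both. Alone, MET28 was read at 2.60, 0.0165, 1.75 and 12.2 in Ctrl and 177, 239, 269 and 116 in Ala (5.82 ± 0.62, adjusted p = 2.4e-09). Summed, the Ctrl libraries held 35.6, 17.9, 21.7 and 27.4 normalized reads and the Ala libraries 177, 265, 302 and 125, a rise of 3.0 ± 0.32, adjusted p = 2.62e-09. Summed, Phe stood at 158, 242, 261 and 96.8 (2.78 ± 0.32, adjusted p = 6.88e-08) and Gly at 135, 65.9, 169 and 124 (2.19 ± 0.32, adjusted p = 3.17e-06). These 3 groups were wholly above Ctrl on both readings, as was Val (1.33 ± 0.32, adjusted p = 0.00872 summed). Ile was wholly above Ctrl on both readings as well, at 46.1, 52.2, 74.7 and 43.8 summed. Summed, Trp (41.6 to 53.1) and Met (45.5 to 59.0) also lay above every Ctrl library.

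Summing ended 4 calls of MET28. In Ile the rise was 3.41 ± 0.62, adjusted p = 0.000908 alone and 1.06 ± 0.32, adjusted p = 0.0871 summed. In Met it was 2.85 ± 0.62, adjusted p = 0.00222 alone and 0.96 ± 0.32, adjusted p = 0.0517 summed, in Thr 3.33 ± 0.62, adjusted p = 0.000255 and 0.73 ± 0.32, adjusted p = 0.154, and in Trp 2.33 ± 0.62, adjusted p = 0.0108 and 0.83 ± 0.32, adjusted p = 0.0901. With those set aside, the counts of sulfur genes changed became 12 in Ile, 5 in Thr, 6 in Trp and 7 in Met. In Cys the sign depended on the reading: the difference from Ctrl was 1.04 ± 0.62 alone (adjusted p = 0.506) and -0.78 ± 0.32 summed (0.256), neither past the threshold. The call of MET28 alone in Trp was also lost without Ctrl B or Trp A (1.75 to 2.01, adjusted p = 0.0577 to 0.0811). MET2 and IRC7 shared reads in the same way, with YNL276C and YFR056C, but kept every call against Ctrl when summed.

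**Figure D4:**
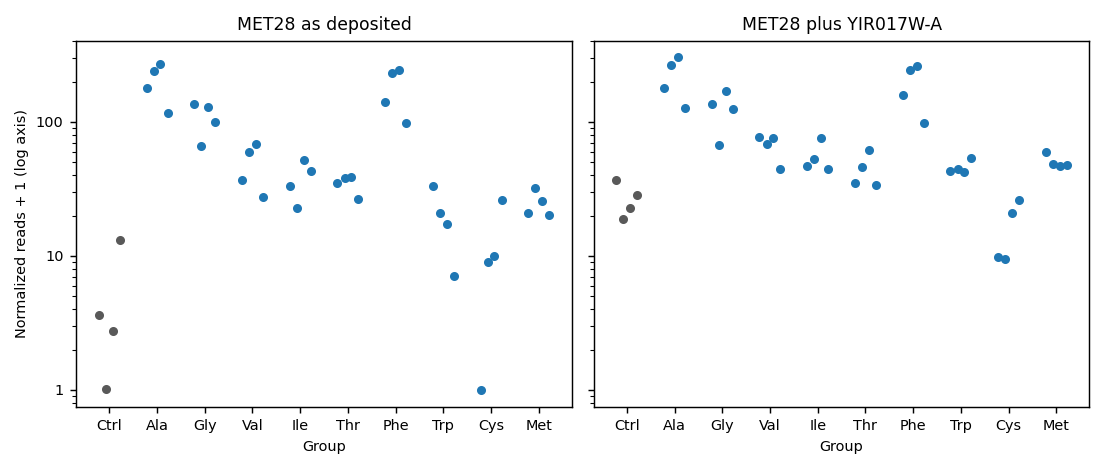
Points are normalized reads + 1 (log axis) of MET28 as deposited (left) and summed with the overlapping frame YIR017W-A (right) in each library, A to D from left. Ctrl spans from near 0 to 12.2 on the left and 17.9 to 35.6 on the right, while Ala and Phe stay highest on both.

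The other regulators changed little. MET4, the activator, was read at 1232, 1293, 1210.1 and 1349 in Ctrl and 1605, 1398, 1623 and 1667 in Met, above Ctrl throughout (0.31 ± 0.09, adjusted p = 0.0205), and differed by at most 0.17 elsewhere. The Met call was lost without Ctrl A, Ctrl C, Met A, Met C or Met D (0.28 to 0.29, adjusted p = 0.0508 to 0.0645). CBF1, the helix-loop-helix factor that also acts at centromeres, rose in Gly, from 389, 425, 436 and 449.8 to 633, 589.9, 886 and 746 (0.73 ± 0.15, adjusted p = 0.000358), and in Trp, to 620.5, 580.1, 653 and 697 (0.58 ± 0.15, adjusted p = 0.00739). Neither group overlapped Ctrl. With the batch letter as a block CBF1 also passed in Thr (0.42, adjusted p = 0.0202 against 0.062) and in Val (0.42, adjusted p = 0.0334 against 0.0988).

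MET30, the F-box protein that restrains Met4, had 840.0, 952, 1300.4 and 978 normalized reads in Ctrl and 1129, 1369.7, 1279 and 1299 in Phe, its largest difference (0.33 ± 0.12, adjusted p = 0.11), which passed under the block (0.0128) and with equal totals (0.0279). MET30 also passed in Ala with equal totals (0.39, adjusted p = 0.00281). The zinc-finger factors MET31 and MET32 passed in no comparison with Ctrl, though MET32 did in Ala with equal totals (0.46, adjusted p = 0.0332). MET31 was read at 229, 186, 181 and 176 in Ctrl and ranged over log2 differences of -0.11 to 0.30. MET32 was read at 87.6, 93.3, 72.7 and 105 in Ctrl, 51.8, 57.5, 85.3 and 89.8 in Cys and 71.8, 80.1, 44.3 and 73.3 in Met. Its lowest differences were in Met (-0.43 ± 0.17, adjusted p = 0.101) and Cys (-0.36 ± 0.17, adjusted p = 0.331), and both groups overlapped Ctrl.

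Which genes set 1 amino acid apart was asked by comparing it with the mean of the other 8 as well as with Ctrl, and a gene counted where both passed in the same direction. Ala had 14 higher and 2 lower, where 19.9% of all genes tested were set apart upward and 20.7% downward in Ala. Gly had 11 higher (background 9.85%), MET28 among them. With MET28 set aside they were led by STR3 (2.0 ± 0.25 against the mean of the other 8) and MET6 (1.31 ± 0.10). Phe had 12 higher (background 1.82%), led after MET28 by SUL1 (1.58 ± 0.12, adjusted p = 7.22e-12), MET16 (1.22 ± 0.14, adjusted p = 1.57e-07) and MET1 (1.02 ± 0.11, adjusted p = 1.03e-08). Every uptake gene but YCT1 and every reducing gene but MET8 was among them, and neither MET3 nor MET14 was. Without Phe C the count was again 12 higher, with 1 lower. Without Gly D the Gly count dropped to 7.

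Val and Ile had few genes set apart, and the activating enzymes led them. Val had MET3 (0.74 ± 0.14, adjusted p = 0.000421) and MET14 (0.80 ± 0.18, adjusted p = 0.00372), 2 genes higher against a background of 0.655%. Ile had MET3 (0.90 ± 0.14, adjusted p = 2.01e-05), MET14 (0.76 ± 0.18, adjusted p = 0.00574) and MET6 (0.36 ± 0.10, adjusted p = 0.0263), 3 higher against 0.426%. Without Ile A or Ile C the Ile count was 1. Thr had MET6 alone (0.40 ± 0.10, adjusted p = 0.00626; background 3.44%), and 0 without Thr B. Trp had GSH1, JLP1 and MET12 lower (background 2.31%), and 1 without Trp A.

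The sulfur amino acids shared IRC7, set apart upward in both, and shared no other gene set apart. IRC7 was not particular to them. Summed with its overlapping frame, it was also above the mean of the other 8 in Ala (0.90 ± 0.14, adjusted p = 2.47e-06) and Phe (0.55 ± 0.14, adjusted p = 0.0109). It passed against Ctrl in both. Cys had MET14 (-1.54 ± 0.18, adjusted p = 5.3e-08) and GSH2 (-0.36 ± 0.08, adjusted p = 0.00132) lower, against a background of 1.43%, and IRC7 (0.38 ± 0.14, adjusted p = 0.0351) higher, against 0.934%. Against the mean of the other 8 alone, 19 of the 32 genes (59.4%) were lower in Cys, where 17.6% of all genes were, such as STR3 (-2.22 ± 0.25), SEO1 (-1.77 ± 0.22) and MET5 (-0.89 ± 0.11), but most of these did not pass against Ctrl. Met had 6 higher (background 3.8%): JLP1 (1.05 ± 0.11, adjusted p = 6.97e-09), STR2 (0.83 ± 0.12, adjusted p = 3.61e-06), MET22 (0.71 ± 0.09, adjusted p = 7.51e-07), IRC7 (0.54 ± 0.14, adjusted p = 0.00629), GSH1 (0.37 ± 0.06, adjusted p = 5.72e-05) and MET4 (0.29 ± 0.07, adjusted p = 0.0018).

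Compared directly, 12 of the 32 genes were higher in Met than in Cys by limma and 0 lower (0 also at an unadjusted p under 0.05), a share of 37.5% where 13.4% of all genes were higher and 13.3% lower. Of the 13 stress genes 5 were higher in Met as well (38.5%) and 0 lower by limma, also 0 at an unadjusted p under 0.05, with a median difference of 0.77 and no overlap of their mean level (7.85 to 9.02 in Met, 6.82 to 7.78 in Cys). Their part in the difference was not tested, and the doses of the 2 amino acids are not given. JLP1 differed most clearly, at 364, 289, 294 and 255 normalized reads in Met and 116, 127, 117 and 128 in Cys, with every Met library above every Cys library (1.28 ± 0.15, adjusted p = 4.14e-08). MET14 was read at 228, 187, 177 and 149 in Met and 96.1, 67.6, 93.9 and 83.1 in Cys, again without overlap (1.11 ± 0.24, adjusted p = 0.000902). STR2, at 1062, 1078, 1262 and 1258 and 494, 617, 547 and 1008, was higher in Met by 0.86 ± 0.16, adjusted p = 0.000194, with Cys D apart from the other Cys libraries. GSH2 (0.66 ± 0.11, adjusted p = 5.1e-05) and GSH1 (0.49 ± 0.08, adjusted p = 4.77e-05), which make glutathione, were both higher in Met. MET28 was higher alone (1.81 ± 0.62, adjusted p = 0.03) and summed (1.75 ± 0.32, adjusted p = 0.000135), and MET22 by 0.46 ± 0.13, adjusted p = 0.00714. SEO1 (1.04), STR3 (0.94), MET16 (0.60), SUL2 (0.37) and MET1 (0.37) also passed. MET6 differed by -0.21 ± 0.14 and CYS3 by 0.03 ± 0.12, and did not pass.

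Of these calls, 5 are of overlapping groups, and a fit to Met and Cys alone left 6 of the 12, ending MET16 (adjusted p = 0.11), MET22 (0.0882), MET28 (0.142), SEO1 (0.126), STR3 (0.0546) and SUL2 (0.0599). Leaving out Met C left 7. SEO1 was lost without Cys A (0.63, adjusted p = 0.0731), MET28 alone without Cys A, Met B or Met C (0.87 to 1.78, adjusted p = 0.0517 to 0.238), MET16 without Cys B, Cys C or Met C (0.40 to 0.52, adjusted p = 0.0807 to 0.119), STR3 without Cys B, Cys C, Met C or Met D (0.76 to 0.87, adjusted p = 0.0768 to 0.113), and SUL2 without any library but Cys B and Met D (0.31 to 0.40, adjusted p = 0.0503 to 0.128). MET1 was lost without any 1 of the 8 (0.30 to 0.41, adjusted p = 0.0513 to 0.15). With the batch letter as a block MET30 (0.28, adjusted p = 0.0141 against 0.0797), BDS1 (0.26, 0.0291 against 0.0514) and MET4 (0.22, 0.0351 against 0.0575) passed as well.

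**Figure D5:**
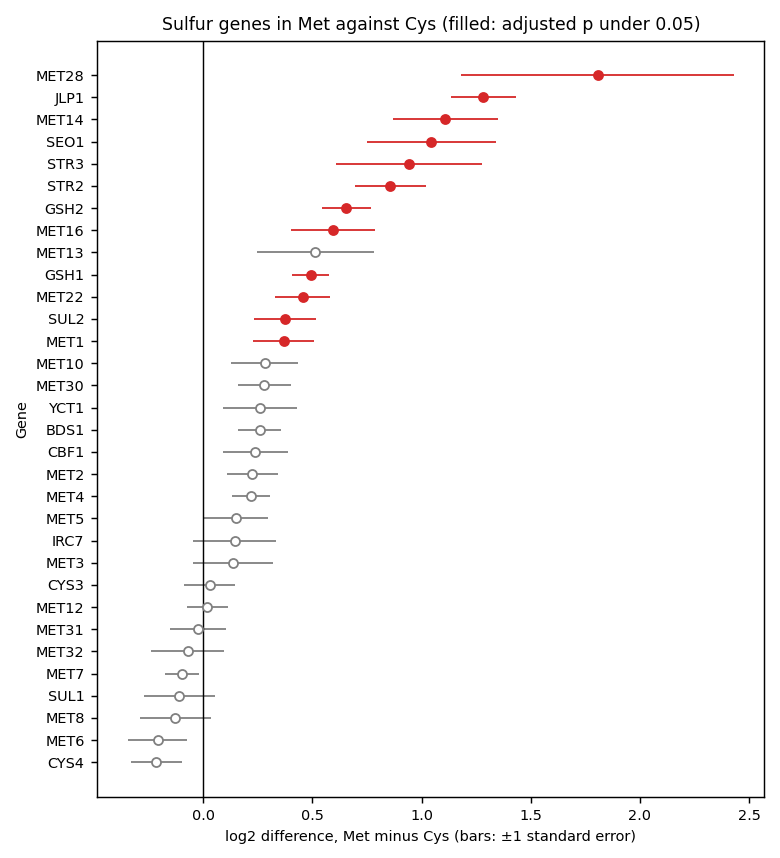
Points are the log2 difference of Met minus Cys for each of the 32 sulfur genes, bars are 1 standard error either way, and filled points have an adjusted p under 0.05. The 12 filled points all lie to the right of 0, from MET1 at 0.37 to MET28 at 1.81.

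Across the mean of the 9 amino acids 11 of the 32 genes rose by limma and 0 fell (0 also at an unadjusted p under 0.05), where 5.15% of all genes rose and 3.88% fell. The rises were of MET28 (3.67 ± 0.47, adjusted p = 7.73e-07 alone; 1.34 ± 0.24, adjusted p = 0.000201 summed), STR3 (1.30 ± 0.25, adjusted p = 0.000466), SEO1 (1.06 ± 0.22, adjusted p = 0.00129), MET16 (0.86 ± 0.14, adjusted p = 7.26e-05), MET1 (0.67 ± 0.11, adjusted p = 2.62e-05), MET10 (0.56 ± 0.11), SUL2 (0.48 ± 0.10), MET5 (0.47 ± 0.11), SUL1 (0.46 ± 0.12), MET6 (0.46 ± 0.10) and CYS3 (0.32 ± 0.09). SUL1 was lost without Ctrl A or Ctrl B (0.42 to 0.44, adjusted p = 0.0603 to 0.0784), CYS3 without Ctrl A or Ctrl B (0.25 to 0.27, adjusted p = 0.107 to 0.134) and MET5 without Ctrl B (0.39, adjusted p = 0.0607). CBF1 passed only with the batch letter as a block (0.31, adjusted p = 0.0271 against 0.0775).

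Other genes of sulfur metabolism were counted in the same way. Of 12 genes of methionine uptake and the S-adenosylmethionine cycle, 4 rose and 3 fell in Ala, shares of 33.3% and 25% near the backgrounds of 23.1% and 24.2%. In Val 4 rose and 3 fell, against 2.51% and 2.88% of all genes, and in Ile 4 and 2, against 1.26% and 0.655%. In Thr it was 4 and 1 (5.87% and 5.33% of all genes), in Trp 2 and 2 (6.32% and 6.0%), in Gly 3 and 0 (14% and 12.2%) and in Phe 2 and 1 (3.7% and 1.9%). With the sulfur amino acids 0 rose and 3 fell in Cys (1.29% and 1.54% of all genes), and 1 rose and 2 fell in Met (6.06% and 3.74%). SAM2, an S-adenosylmethionine synthetase, rose in all 7 amino acids without sulfur, from 0.87 ± 0.13, adjusted p = 1.11e-05 in Phe to 1.53 ± 0.13, adjusted p = 7.3e-11 in Thr, and fell in Met (-0.69 ± 0.13, adjusted p = 0.000438), while in Cys it did not pass (-0.30 ± 0.13, adjusted p = 0.298). Its Met libraries held 1024, 988, 1498 and 961 normalized reads against 1588, 1589, 2484 and 1568 in Ctrl, with no overlap. MHT1, which makes methionine from homocysteine and S-methylmethionine, rose in Ala (2.09 ± 0.26), Val (1.35 ± 0.26), Thr (1.39 ± 0.26), Gly (1.16 ± 0.26) and Trp (1.07 ± 0.26), among others. MMP1, the S-methylmethionine permease, rose in Ile (0.97 ± 0.14) and fell in Cys (-1.14 ± 0.14, adjusted p = 1.15e-06), where its libraries held 83.4, 72.7, 87.9 and 68.2 against 162, 166, 214 and 156. MUP3 (-0.90 ± 0.23, adjusted p = 0.0207) and MUP1 (-0.58 ± 0.16, adjusted p = 0.0382), methionine permeases, fell in Cys as well.

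Of 9 genes of glutathione transport and turnover, 5 rose and 0 fell in Ala, where 23.1% and 24.2% of all genes did, and 5 and 2 in Gly (14% and 12.2%). It was 5 and 0 in Thr (5.87% and 5.33%), 3 and 0 in Trp (6.32% and 6.0%), 1 and 0 in each of Val, Phe and Met, where 2.51%, 3.7% and 6.06% of all genes rose, and 0 in Ile and Cys by limma, where 3 and 2 had an unadjusted p under 0.05. The glutathione transferase GTT2 rose in Ala (1.46 ± 0.11, adjusted p = 9.54e-13) and Met (0.60 ± 0.11, adjusted p = 0.000449), and the glutathione and oligopeptide transporter OPT1 in Thr (1.20 ± 0.13, adjusted p = 2.11e-08) and Gly (1.06 ± 0.13, adjusted p = 1.06e-07). Of 10 other sulfur genes, 9 were tested, and 6 rose and 0 fell in Ala (23.1% and 24.2% of all genes), 6 and 2 in Gly (14% and 12.2%), 3 and 2 in Thr (5.87% and 5.33%), 2 and 1 in Trp (6.32% and 6.0%) and 1 and 1 in Val (2.51% and 2.88%). In Ile, Phe and Met 1 rose and 0 fell, where 1.26%, 3.7% and 6.06% of all genes rose, and in Cys 0 rose and 1 fell, where 1.54% of all genes fell. MXR1, a methionine sulfoxide reductase, rose in the 7 amino acids without sulfur, from 0.59 ± 0.17, adjusted p = 0.0278 in Phe to 1.41 ± 0.17, adjusted p = 2.63e-08 in Ala, and fell in Cys (-0.62 ± 0.17, adjusted p = 0.0339). SSU1, a sulfite efflux pump, rose in Met (0.94 ± 0.17, adjusted p = 0.000327) and Gly (0.73 ± 0.17, adjusted p = 0.00201) and fell in Val (-0.94 ± 0.17, adjusted p = 0.000499) and Trp (-0.69 ± 0.17, adjusted p = 0.00666).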

How the data were processed

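Poly(A) RNA of 40 yeast libraries was sequenced from directional NEBNext Ultra II libraries made with 300 ng of input RNA each, per the labels' protocols. The submitters' processing notes list Partek and STAR 2.7.8a without saying what each did, and the genome build, gene models and handling of strand were not given in the sources used here. The authors deposited a signal for each gene in each library, namely read counts after a normalization whose factor is not stated. In each library 88.8 to 90.9% of the values below 20000 reads were whole multiples of 1 unit (tolerance 0.1 read), and that unit was used to estimate depth. Because the others were fractional, no count test was run. Emptied lines, 4 in all, were not used.

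limma 3.58.1 in R 4.3.3 was fitted to log2(value + 1), with a trended variance, all 40 libraries and no block. Genes needed a mean of 5 or more, and p-values were adjusted by Benjamini-Hochberg over all 6103 that had it. Comparisons were each amino acid with Ctrl and with the mean of the other 8, the mean of the 9 with Ctrl, and Met with Cys. The steps were tested on simulated data. The members and lists were chosen with earlier results of these data known. All 32 members are accounted for, with values by library for those past a log2 change of 1 and for regulators in the groups compared, and up to 3 genes named per other list and comparison.

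The labels call the letters A to D batches, and this pairs the libraries. Checked on the deviations from group means, the mean r was 0.174 for libraries sharing a letter and -0.0576 for others. Averaged by letter over the libraries of other groups, r was highest for a library's own letter in 29 of 40 cases. With the Ctrl library of the same letter r exceeded 0.1 in 24 of 36 pairs (-0.0655 to 0.492). Alternatives tried were no filter, pseudocounts of 0.25 and 4, equal totals or median-of-ratios scaling, a block for the letter, leaving out each library, and fits limited to the groups compared. Summing MET28, MET2 and IRC7 with their overlapping frames was chosen after seeing the data.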

Additional observations from a re-analysis of the deposited data

Results flagged for a closer look

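Within groups of 4, 14 of 320 combinations of gene and group had a library whose gap to the nearest other exceeded Dixon's critical share of the group's range, where chance gives about 1 in 20. The number flagged is thus no more than chance gives. No explanation was tested for any of them.

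In Val, MET6 was high in replicate B at 15245.3 normalized reads (the others 11965.1 to 12438.6), MET22 was high in replicate B at 800.05, MET14 was high in replicate A at 399.047, and SUL1 was low in replicate C at 235.963 (the others 311.259 to 318.576). In Thr, MET22 was low in replicate D at 845.934 and MET31 high in replicate C at 270.132. In Met, replicate C was high for MET30 at 1606.94 and low for YCT1 at 168.963. In Phe, SUL2 was high in replicate C at 876.553 (the others 454.882 to 523.523), the library that also stood apart in stress genes, and GSH1 was low in replicate A at 784.497. CYS3 was high in Gly replicate D at 8886.52 and MET4 low in Ala replicate B at 1007.06. IRC7 was high in Ctrl replicate C at 1011.95 (the others 679.185 to 720.786) and low in Cys replicate D at 1044.57.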

How the results depend on the processing

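Of 352 pairs of gene and comparison, 115 passed, 30 of those were lost without at least 1 library, and none changed sign in a call under any alternative. The count with Ctrl for Cys, 3, became 5 with equal totals and 1 with the compared groups only. That for Val, 10, became 15 with the compared groups only. Fits limited to the groups compared gained 12 calls and ended 13. Among the gains were MET5 in Trp (adjusted p = 0.0246), MET13 in Met (0.0207) and CBF1 in Thr (0.0348). For Met against Cys, 12 higher became 6 with the compared groups only, 17 with equal totals and 15 with the replicate block. The genes gained there with equal totals were BDS1, MET10, MET2, MET30 and MET4. Genes set apart in Val, 2, became 5 (2 higher and 3 lower) with equal totals and 4 with the replicate block, and in Thr, 1, became 3 and 2. In Cys the genes set apart, 1 higher and 2 lower, became 0 and 4 with equal totals. With equal totals the median gene shifted by 0.187 in Ala, 0.072 in Met and -0.068 in Cys, and the median of ratios by at most 0.001. The replicate block of the batch letters ended no call and gained 15, given beside the results, of which CBF1 in Val had an adjusted p of 0.0334, and it changed no other call against Ctrl or between Met and Cys. With the block the genes set apart numbered 17 in Ala, 12 in Gly, 3 in Ile, 14 in Phe, 4 in Trp, 4 in Cys and 7 in Met, against 16, 11, 3, 12, 3, 3 and 6 without it.

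Leaving out 1 library gave counts of 18 to 19 in Ala, 14 to 15 in Gly, 7 to 11 in Val, 9 to 13 in Ile, 4 to 6 in Thr, 13 to 16 in Phe, 4 to 8 in Trp, 0 to 3 in Cys, 6 to 7 in Met, 8 to 13 for the mean of the 9 and 7 to 13 for Met against Cys. For genes set apart it gave 15 to 17 in Ala, 7 to 11 in Gly, 2 to 3 in Val, 1 to 3 in Ile, 0 to 1 in Thr, 8 to 13 in Phe, 1 to 3 in Trp, 0 to 3 in Cys and 4 to 5 in Met. Few reads limit MET28, SEO1, STR3, MET32 and MET16, which averaged under 100 normalized reads in Ctrl. The cause of these shifts was not tested.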
